A study of Homo sapiens with 9 samples.

Results

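The AP-1 transcription factors described here are the 10 genes FOS, FOSB, FOSL1, FOSL2, JUN, JUNB, JUND, ATF3, MAFF and BATF3. They were taken by gene symbol from a list, and all 10 were found among the 37247 genes of both deposited tables. The list was chosen with earlier results of these data known, so counts of members set beside all genes are descriptions. Gene expression was measured by RNA sequencing in an immortalized line of human trabecular meshwork cells, the porous tissue by which fluid leaves the front of the eye. Cells near confluence on collagen were kept without serum for 24 h and then exposed for 6 h to 1 of 3 conditions. These were dexamethasone (DEX, a synthetic glucocorticoid) at 0.1 µM, norepinephrine (NE, the transmitter of sympathetic nerves) at 1 µM, and the vehicle DMSO. Each condition has 3 biological replicates per the labels, and the labels do not say whether replicates were separate cultures, so the p-values cover the variation among these libraries only, which may be partly technical. All libraries come from 1 immortalized line.

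AP-1 is a dimer of basic leucine zipper (bZIP) proteins that binds the DNA element TGANTCA. Jun proteins pair with themselves or with Fos proteins, whereas Fos proteins need a partner, so the mixture of subunits in a cell sets which dimers can form. ATF3 and BATF3 also pair with Jun proteins, and MAFF is a small Maf protein without an activation domain. Many of these genes are immediate early genes, transcribed within minutes of a signal through ERK, JNK or cAMP. The activated glucocorticoid receptor is known to restrain AP-1 activity by contact with its subunits, and steroid effects on the trabecular meshwork are studied because they can raise eye pressure.

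The deposited values were expected counts in 2 tables, 1 with 3 DEX and 3 vehicle libraries and 1 with 3 NE and 3 vehicle libraries. The DEX table held 19326830 to 27337259 counts per library, and the libraries of the NE table held 31104094 to 36216506. Of the 12 columns, 9 match the 9 labelled samples by name. The vehicle columns of the NE table, named for DMSO, were assigned to the vehicle group without a match to a labelled sample, and whether they are other cultures or repeat runs is not given in the sources used here. Each treatment was therefore set only against the vehicle of its own table. Member genes had 57 to 4851 counts per library. Within a group, vehicle library 1 of the NE table stood apart. The chi-square per degree of freedom between it and the other libraries of its group was 16.83 and 20.54, against 2.93 to 9.28 for the other pairs of replicates. In the DEX table, library 3 was the lowest of its group for 9 of 10 members in DEX cells and for 9 of 10 in vehicle cells. As a check on the treatments, 7 of 8 glucocorticoid control genes rose with DEX, beside 6.65% of all tested genes. Of 10 cAMP control genes, 5 rose with NE, beside 1.48% of all tested genes. Both lists were chosen with earlier results of these data known. The glucocorticoid genes were led by TSC22D3, ZBTB16, PER1 and KLF9 (log2 fold changes 3.73, 2.67, 2.28 and 1.64) and the cAMP genes by NR4A3, PPARGC1A, PDE4D and PER1 (1.61, 1.30, 1.20 and 0.93). The cAMP count was 3 without NE library 2, NE library 3 or vehicle library 3, fits in which the PPARGC1A call was lost (adjusted p up to 0.0879). With NE, 4 of 8 glucocorticoid control genes rose and 1 fell, a count of 0 without NE library 2, NE library 3 or vehicle library 3. With DEX, 2 of 10 cAMP control genes rose and 1 fell, a count of 0 without DEX library 2. The 2 that rose were PDE4D and PER1, and PER1 is on both lists. The share of all tested genes called lower was 1.34% with NE and 3.46% with DEX. Of 10 trabecular meshwork markers, 7 in the DEX table and 5 in the NE table reached 1 CPM (counts scaled to a common library size) in every library. FOXC1, VIM and COL4A1 were present, whereas MYOC, AQP1 and ANGPTL7 stayed at or below 0.235, 0.336 and 0.412 CPM. Summed markers of other cell types overlapped between each treatment and its vehicle for endothelial (5.25 to 8.70 CPM over all libraries), immune (28.6 to 70.6, nearly all CD68) and smooth muscle or pericyte genes (317 to 372, nearly all ACTG2), and likewise for epithelial (0.892 to 2.88) and melanocyte or Schwann genes (6.91 to 9.72). Summed trabecular meshwork markers, mostly VIM, overlapped between DEX and its vehicle but lay lower in NE libraries, at 4110 to 4203 CPM against 4309 to 4577 CPM in vehicle, and their part in the results was not tested. In bulk RNA, a change in the number of cells that express a gene and a change per cell cannot be told apart.

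The proximal promoters of the members were searched first, because cAMP and stress signals act on several of these genes through CREB and ATF elements. RefSeq (GRCh38.p14) gave the 250 bases before the start of 8 members at 10 start sites; FOSL1 and BATF3 had no entry. The searched motifs were the cAMP response element TGACGTCA, its core TGACG, the Jun and ATF element TGACATCA, the AP-1 element TGANTCA, the glucocorticoid receptor element ACANNNTGT, its shorter form AGAACA, the TATA motif TATAAA, and the CArG box bound by serum response factor. Both strands were read. For each promoter, 1 match to TGACGTCA, TGACATCA or TGACG is given here, the nearest of them to the start, 5′ to 3′ on the gene's strand, with the matching letters in capitals.

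FOS, chr14:75278751-75278780, positions -64 to -60: gtggttgagcccgTGACGtttacactcatt
FOSB, chr19:45467923-45467952, positions -60 to -56: agcaaggggcgggTGACGtaagcagggggg
FOSL2, chr2:28392779-28392808, positions -66 to -62: tggagtctggggtTGACGtgagtgaatcca
JUN, chr1:58784096-58784125, positions -67 to -60: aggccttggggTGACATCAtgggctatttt
JUNB, chr19:12791336-12791365, positions -137 to -133: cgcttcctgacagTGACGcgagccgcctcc
JUND, chr19:18281692-18281721, positions -86 to -82: tgcaaatgagcgaCGTCAcccgcacccaat
ATF3, chr1:212565273-212565302, positions -123 to -116: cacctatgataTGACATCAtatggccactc
MAFF, chr22:38201929-38201958, positions -54 to -47: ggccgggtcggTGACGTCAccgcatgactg

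The TGACG core lay in the promoters of 7 members, FOS, FOSB, FOSL2, JUN, JUNB, JUND and MAFF, and in 21.2% of 35116 RefSeq promoters of the same length. Members are counted once per gene, whereas the percentages count each promoter window singly. Both ATF3 windows and the second MAFF window lacked TGACG. JUND and MAFF held the full element TGACGTCA (1.65% of all promoters), and JUN and ATF3 held TGACATCA (2.37%). None of the searched windows held TGANTCA, ACANNNTGT or a CArG box, which occurred in 6.57%, 4.61% and 1.16% of all promoters. FOSB held AGAACA at positions -142 to -137 (12.4% of all promoters). TATAAA (10.7%) lay at -33 to -28 in FOS, -30 to -25 in FOSB and -31 to -26 in JUNB. At the second start site of ATF3 it lay further upstream, at -230 to -225. The JUN window and both MAFF windows lie within exons of transcripts in GENCODE 29, an annotation that starts these genes further upstream. A match describes letters and not a bound site.

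With DEX, the Fos-related subunits FOSL1 and FOSL2 moved in opposite directions and JUNB fell. Of 10 members, 1 rose and 2 fell at an adjusted p below 0.05 (edgeR's quasi-likelihood test with Benjamini-Hochberg adjustment over 15133 genes). Of all tested genes 10.1% were called, 6.65% higher and 3.46% lower. With NE, FOSL1, JUN and MAFF fell and ATF3 and FOSB rose. These are 2 of 10 members higher and 3 of 10 lower over 15630 tested genes, and 2.82% of all tested genes were called, 1.48% higher and 1.34% lower. Fold changes below are on a log2 scale with a standard error (SE). The SE was derived from the test, as the absolute log2 fold change divided by the square root of the F statistic. Levels are CPM scaled by TMM over all 12 libraries with SD (n = 3 each). The median log2 fold change over the members was -0.01 with DEX and -0.19 with NE, beside -0.01 and -0.00 over all tested genes. In 3 of 10 members the DEX and vehicle libraries did not overlap, beside 28.2% of all genes, and in 6 of 10 the NE and vehicle libraries did not overlap, beside 21.2%.

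**Figure D1:**
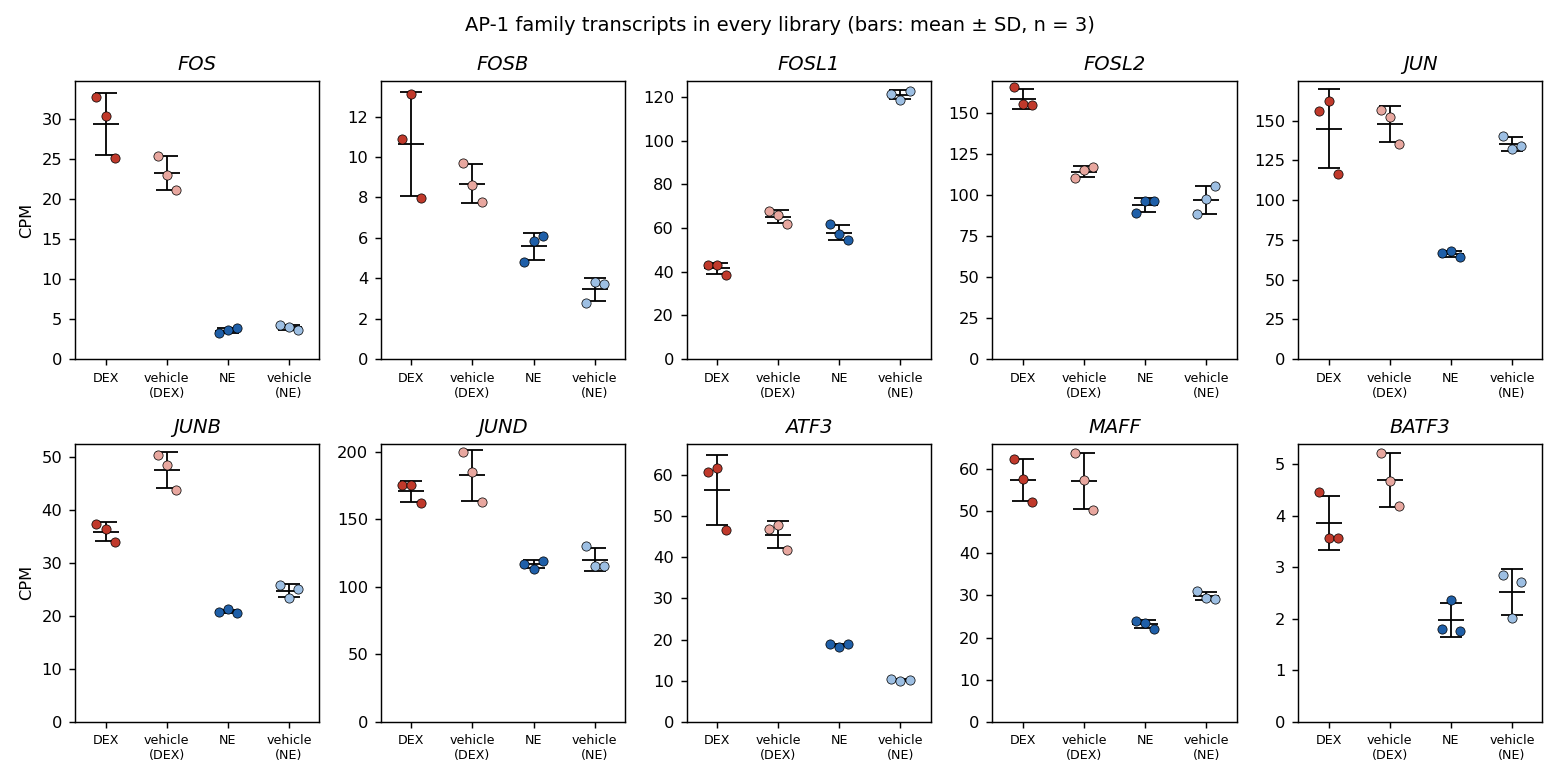
Level of each of the 10 AP-1 genes in every library (CPM, linear axis), with DEX left of its vehicle and NE left of its vehicle. Points are libraries, and bars are the mean and SD (n = 3). FOSL1 lies below its vehicle with both treatments, at 41.4 against 65.1 CPM with DEX and at 57.8 against 121 CPM with NE.

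FOSL1 encodes FRA1, a Fos protein that lacks the activation domain of FOS and persists longer after stimulation (chromosome 11, 65892049 to 65900573, minus strand, GRCh38). In DEX cells it was at 43.0, 42.9 and 38.4 CPM, against 67.7, 65.7 and 61.8 CPM in vehicle cells. The DEX libraries all lay below the vehicle libraries, and FOSL1 fell by 0.65 (SE 0.06, adjusted p = 2.72e-06). With NE, FOSL1 was at 61.6, 57.4 and 54.5 CPM, against 121, 119 and 123 CPM in vehicle cells. The groups again did not overlap, and it fell by 1.06 (SE 0.05, adjusted p = 8.69e-05). FOSL1 was the single member called lower with both treatments, as were 64 of the 14943 genes tested in both (0.428%).

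FOSL2 encodes FRA2, the other Fos-related protein (chromosome 2, 28392448 to 28417312, plus strand). Its libraries read 165, 155 and 154 CPM with DEX, against 110, 115 and 117 CPM with vehicle. All DEX libraries lay above all vehicle libraries, and FOSL2 rose 1.39-fold (log2 0.47, SE 0.04, adjusted p = 4.28e-06). With NE it was at 88.7, 95.9 and 96.5 CPM, against 88.2, 97.2 and 105 CPM with vehicle, and these ranges overlapped (log2 -0.04, SE 0.07, adjusted p = 0.833). The ratio of FOSL2 to FOSL1 counts, uncorrected for length, was 3.83 ± 0.20 in DEX cells and 1.76 ± 0.13 in their vehicle, and 1.63 ± 0.17 in NE cells and 0.800 ± 0.067 in their vehicle (exact permutation p = 0.1 for each pair, the smallest that 3 against 3 can give).

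FOS, the founding immediate early member (chromosome 14, 75278774 to 75282230, plus strand), was at 29.4 ± 3.9 CPM with DEX and 23.2 ± 2.1 CPM with vehicle. The ranges overlapped, at 25.2 to 32.7 against 21.2 to 25.4 CPM, and the difference did not pass (log2 0.34, SE 0.10, adjusted p = 0.0683). The call depended on the fit: it passed in DESeq2 (adjusted p = 0.0221), without DEX library 3 (0.00247) and without vehicle library 1 (0.0432). It also passed without a filter on low counts (adjusted p = 9.25e-06) and in the fit of all 12 libraries (0.0413). With NE, FOS was at 3.56 ± 0.31 CPM, against 3.96 ± 0.29 CPM in vehicle (log2 -0.15, SE 0.11, adjusted p = 0.642).

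FOSB encodes a Fos protein whose short splice form accumulates with repeated stimulation (chromosome 19, 45467995 to 45475179, plus strand). In NE cells it was at 4.82, 5.85 and 6.09 CPM, against 2.79, 3.84 and 3.73 CPM in vehicle cells. The NE libraries lay above the vehicle libraries, and FOSB rose 1.62-fold (log2 0.70, SE 0.14, adjusted p = 0.0460). This call was lost when any library other than vehicle 1 was left out, with an adjusted p up to 0.215. With DEX it was at 10.9, 13.1 and 7.95 CPM, against 9.69, 8.62 and 7.76 CPM, which overlapped (log2 0.30, SE 0.19, adjusted p = 0.404). FOSB passed with DEX when DEX library 3, its lowest, was left out (log2 0.47, adjusted p = 0.0181) and without a filter on low counts (adjusted p = 0.0267).

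JUN, the partner of most Fos proteins and a target of JNK (chromosome 1, 58780788 to 58784327, minus strand), fell with NE. NE cells had 66.7, 67.7 and 64.2 CPM, against 140, 132 and 134 CPM in vehicle cells. Every NE library was below every vehicle library, and JUN fell by 1.03 (SE 0.05, adjusted p = 4.87e-05). With DEX, JUN was at 156, 162 and 116 CPM, against 157, 152 and 135 CPM. The DEX range enclosed that of the vehicle (log2 -0.03, SE 0.15, adjusted p = 0.933), with library 3 the lowest in both groups. The promoter element TGACATCA printed above for JUN is also printed for ATF3, at the first of its 2 start sites. Its part in the change of either gene was not tested.

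JUNB, a Jun protein that often opposes JUN (chromosome 19, 12791496 to 12793315, plus strand), was at 37.3, 36.4 and 34.0 CPM in DEX cells, against 50.4, 48.4 and 43.7 CPM in vehicle cells. The groups did not overlap, and JUNB fell by 0.40 (SE 0.06, adjusted p = 0.000567). With NE it was at 20.8, 21.2 and 20.5 CPM, against 25.9, 23.4 and 25.0 CPM. These groups did not overlap either, but the difference did not pass (log2 -0.24, SE 0.06, adjusted p = 0.0674), and it passed in the fit of all 12 libraries (0.0441) and without a filter on low counts (0.0495). JUNB shares 259 of its 1820 exon bases with HOOK2 on the opposite strand, and whether the counting used strand is not given in the sources used here. HOOK2 did not pass with either treatment (log2 -0.01 with DEX and -0.10 with NE).

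JUND, the Jun protein found in resting cells (chromosome 19, 18279760 to 18281622, minus strand), was at 171 ± 7.8 CPM in DEX cells and 183 ± 19 CPM in their vehicle. NE cells had 116 ± 3.0 CPM and their vehicle 120 ± 8.8 CPM. Neither difference passed (log2 -0.09, SE 0.07, adjusted p = 0.493 with DEX, and log2 -0.04, SE 0.06, adjusted p = 0.818 with NE). Leaving out vehicle library 3 brought the DEX value to -0.18 and past the threshold (adjusted p = 0.0304).

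ATF3, a stress-induced bZIP protein that represses many targets (chromosome 1, 212565334 to 212620777, plus strand), rose with NE. It was at 18.8, 18.3 and 18.9 CPM with NE, against 10.5, 9.99 and 10.2 CPM with vehicle. The groups were far apart relative to their spread, and ATF3 rose 1.83-fold (log2 0.87, SE 0.06, adjusted p = 0.000229). With DEX it was at 60.9, 61.8 and 46.7 CPM, against 47.0, 47.9 and 41.8 CPM. Library 3 put the DEX range into that of the vehicle, and the difference did not pass (log2 0.31, SE 0.12, adjusted p = 0.186). It passed without DEX library 3 (log2 0.43, adjusted p = 0.000442) and in DESeq2 (0.0186). The same held without a filter on low counts (adjusted p = 5.21e-06) and in the fit of all 12 libraries (0.0495).

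MAFF, the small Maf protein (chromosome 22, 38200767 to 38216511, plus strand), was at 24.0, 23.6 and 22.1 CPM in NE cells, against 31.0, 29.4 and 29.1 CPM in vehicle cells. The groups did not overlap, and MAFF fell by 0.36 (SE 0.06, adjusted p = 0.0142). The call was lost without NE library 2, NE library 3 or vehicle library 2 (adjusted p from 0.0543 to 0.0805). With DEX, MAFF was at 57.5 ± 5.0 CPM, against 57.2 ± 6.8 CPM in vehicle (log2 0.01, SE 0.10, adjusted p = 0.970). BATF3, a Jun partner best known from dendritic cells (chromosome 1, 212686418 to 212699985, minus strand), was at 3.86 ± 0.52 CPM with DEX and 4.69 ± 0.52 CPM with vehicle, and at 1.97 ± 0.34 CPM with NE and 2.52 ± 0.45 CPM with vehicle. Neither difference passed (log2 -0.28, SE 0.14, adjusted p = 0.251 with DEX, and log2 -0.35, SE 0.19, adjusted p = 0.480 with NE).

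**Figure D2:**
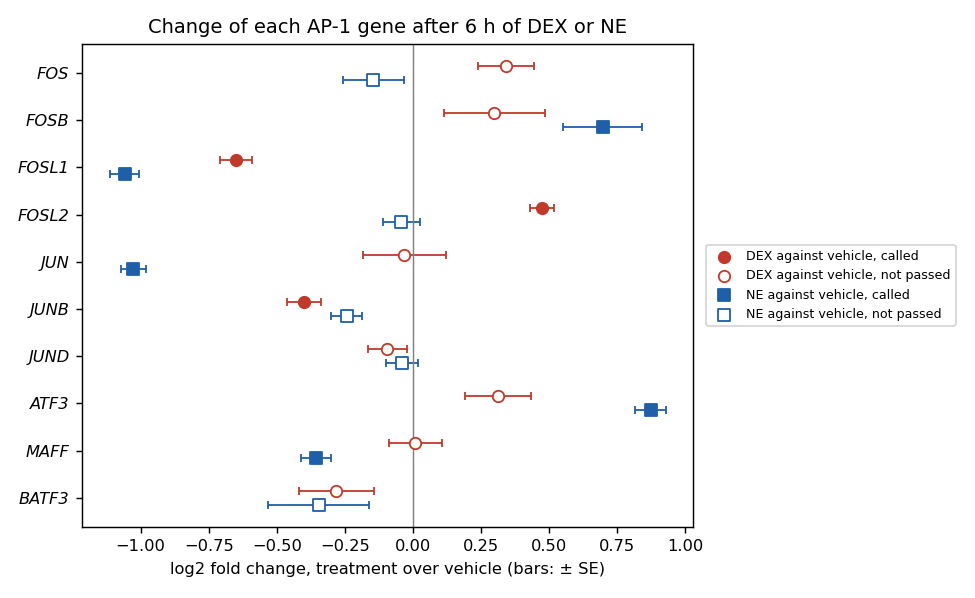
Log2 fold change of each AP-1 gene with DEX and with NE, each against the vehicle of its own table, with bars of 1 SE; filled points passed an adjusted p of 0.05 and open points did not. FOSL1 is the only gene filled on the negative side for both treatments, at -0.65 and -1.06, and JUN is at -0.03 with DEX and -1.03 with NE.

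Whether DEX and NE acted differently on a member was tested as the difference of their effects (DEX minus vehicle, less NE minus vehicle) in 1 fit of all 12 libraries. Each treatment has a table and a vehicle set of its own, so a difference between the drugs and one between the starting states of the cells cannot be told apart here. The test passed for 4 of 10 members, against 6% of 15952 tested genes. The members were chosen with earlier results of these data known, so this count is a description. JUN had the widest difference, 0.99 on the log2 scale (SE 0.15, adjusted p = 0.00153). FOSL2 differed by 0.51 (SE 0.08, adjusted p = 0.00130) and FOSL1 by 0.41 (SE 0.08, adjusted p = 0.00841), so FOSL1 fell less with DEX than with NE. ATF3 differed by -0.56 (SE 0.14, adjusted p = 0.0276), a call lost in 8 of 12 fits that leave out 1 library (adjusted p up to 0.0782). The differences for the other 6 members did not pass, from FOS at 0.48 (SE 0.16, adjusted p = 0.119) to FOSB at -0.40 (SE 0.25, adjusted p = 0.489).

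To set the subunits side by side, CPM were divided by the length of each gene's longest transcript in GENCODE 29, and each member was given as a share of the sum over all 10. JUND was first in DEX cells (34.9 ± 1.4% of the sum) and in their vehicle (35.4 ± 0.95%), and in NE cells (38.8 ± 1.0%). FOSL1 was first in the vehicle of the NE table, at 32.8 ± 0.78% against 29.1 ± 1.4% for JUND. With the summed length of all exons in place of the longest transcript, these 2 shares were 31.3% and 31.5%, in the other order. Without division by length, JUND held 24.1% of the summed CPM in DEX cells and 26.2% in their vehicle, FOSL2 held 22.4% and 16.4%, and FOSL1 held 5.85% and 9.35%. On that scale JUND held 28.5% in NE cells and 21.9% in their vehicle, FOSL1 held 14.2% and 22.1%, and JUN, at 16.2% and 24.7%, was first in the NE vehicle. Per kilobase, JUN ranked the second in DEX cells and in their vehicle and the third in NE cells and in theirs. Of the neighbours in the order, the ranges overlapped for ATF3 with FOSL1, FOSL1 with FOSL2, and JUNB with MAFF in DEX cells. They also overlapped for JUN with FOSL1, MAFF with FOSL2, and FOSB with BATF3 in the DEX vehicle, for FOS with FOSB in NE cells, and for FOSL2 with JUNB and BATF3 with FOSB in the NE vehicle.

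FOSL1 made up 9.45 ± 0.20% of the sum in DEX cells and 14.1 ± 0.45% in their vehicle, while FOSL2 made up 8.41 to 9.68% in the DEX libraries and 5.58 to 6.90% in the vehicle libraries. In NE cells FOSL1 made up 21.5 ± 1.2%, against 32.8 ± 0.78% in vehicle. JUN made up 11.6 ± 0.31% in NE cells and 17.3 ± 0.091% in vehicle. ATF3 made up 10.2 ± 0.72% with DEX and 7.85 ± 0.27% with vehicle, and 5.51 ± 0.098% with NE and 2.20 ± 0.0083% with vehicle. None of these ranges overlapped between a treatment and its vehicle, and each gave an exact permutation p of 0.1, the smallest possible. The sum itself was 161 ± 1.4 CPM per kilobase in NE cells and 221 ± 6.6 in vehicle cells (exact permutation p = 0.1), and 263 ± 22 in DEX cells and 276 ± 21 in vehicle cells (exact permutation p = 0.5). With the summed length of all exons in place of the longest transcript, ATF3 made up 5.97% with DEX and 4.54% with vehicle. On that scale ATF3 made up 3.12% with NE and 1.24% with vehicle.

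By family, JUN, JUNB and JUND together held 57.9 ± 0.54% of the sum in DEX cells and 60.1 ± 0.87% in vehicle, and 57.5 ± 0.69% in NE cells and 52.6 ± 1.5% in vehicle. The higher Jun share in NE cells is not a rise of a Jun gene. The log2 fold changes with NE were -1.03 for JUN, -0.24 for JUNB and -0.04 for JUND. FOSL1, in the same sum, was at 34.6 CPM per kilobase in NE cells and 72.5 in vehicle. The order of the Jun share in NE and vehicle turns round without division by length, at 49.9% in NE cells and 51.1% in vehicle. The 4 Fos genes held 24.7 ± 0.50% in DEX cells and 25.1 ± 1.0% in vehicle, and 32.1 ± 0.56% in NE cells and 40.6 ± 1.5% in vehicle. ATF3, MAFF and BATF3 held 17.4 ± 0.69% with DEX and 14.9 ± 0.22% with vehicle, and 10.4 ± 0.13% with NE and 6.80 ± 0.056% with vehicle. The ratio of JUN to JUND counts was 0.569 ± 0.030 in NE cells and 1.13 ± 0.047 in vehicle (exact permutation p = 0.1), and 0.845 ± 0.11 in DEX cells and 0.813 ± 0.025 in vehicle (exact permutation p = 0.8).

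**Figure D3:**
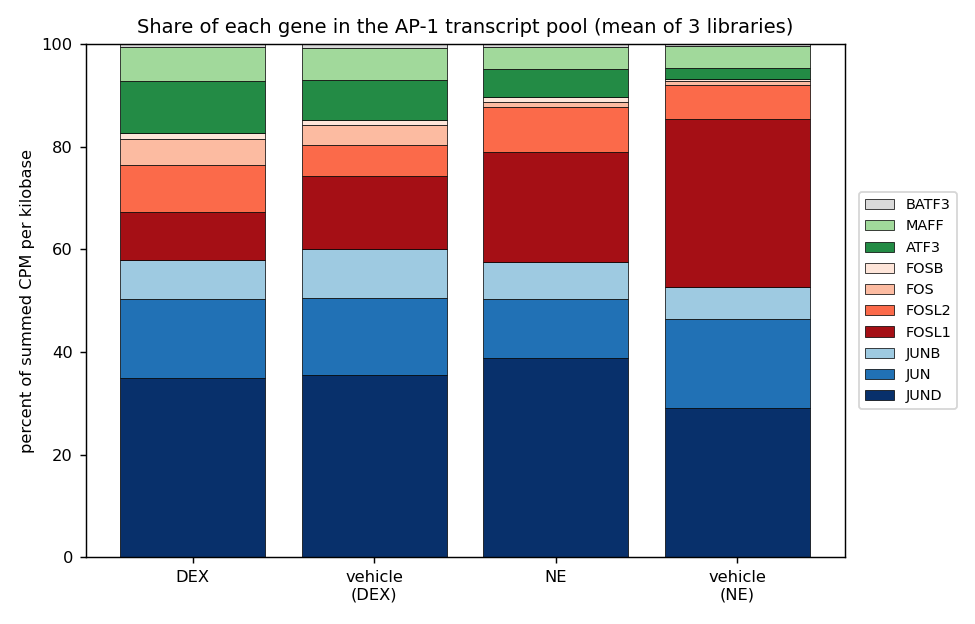
Mean share of each AP-1 gene in the summed CPM per kilobase (percent, n = 3 libraries per bar), with DEX left of its vehicle and NE left of its vehicle. The FOSL1 band is 9.45% with DEX and 14.1% with vehicle, and 21.5% with NE and 32.8% with vehicle.

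The AP-1 genes sit downstream of kinase pathways and upstream of matrix and cytokine genes, so lists of both were counted beside them. The lists counted here and below were chosen with earlier results of these data known, so their counts are descriptions. Of all tested genes, 6.65% were called higher and 3.46% lower with DEX, and 1.48% higher and 1.34% lower with NE. Of 19 tested ERK-dependent genes, 13 fell and none rose with NE, with a median log2 fold change of -0.49 against -0.00 over all genes. This count was 6, 7 and 8 without NE library 2, NE library 3 or vehicle library 2, and 13 without vehicle library 1, the one that stood apart. DUSP6, a phosphatase that switches off ERK, fell by 1.23 to 21.3 ± 2.8 CPM with NE, against 50.3 ± 4.1 CPM in vehicle (adjusted p = 0.000576). The ERK inhibitor SPRY4 fell by 1.19 (adjusted p = 0.000318), the immediate early factor EGR1 by 1.05 (adjusted p = 0.000580), and the cyclin gene CCND1 by 1.04 (adjusted p = 0.000346). With DEX, 2 of 18 rose and 6 fell, with a median of -0.02. DUSP5, another ERK phosphatase, rose by 0.97 to 77.9 ± 4.2 CPM, against 39.9 ± 2.5 CPM (adjusted p = 5.69e-08). MYC rose by 0.85 (adjusted p = 1.16e-08), while the EGF receptor ligand HBEGF fell by 0.74 (adjusted p = 7.77e-05) and IER2 fell by 0.42 (adjusted p = 0.00191). The difference of effects passed for 9 of 19, with 8 positive, against 6% of all tested genes.

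**Figure D4:**
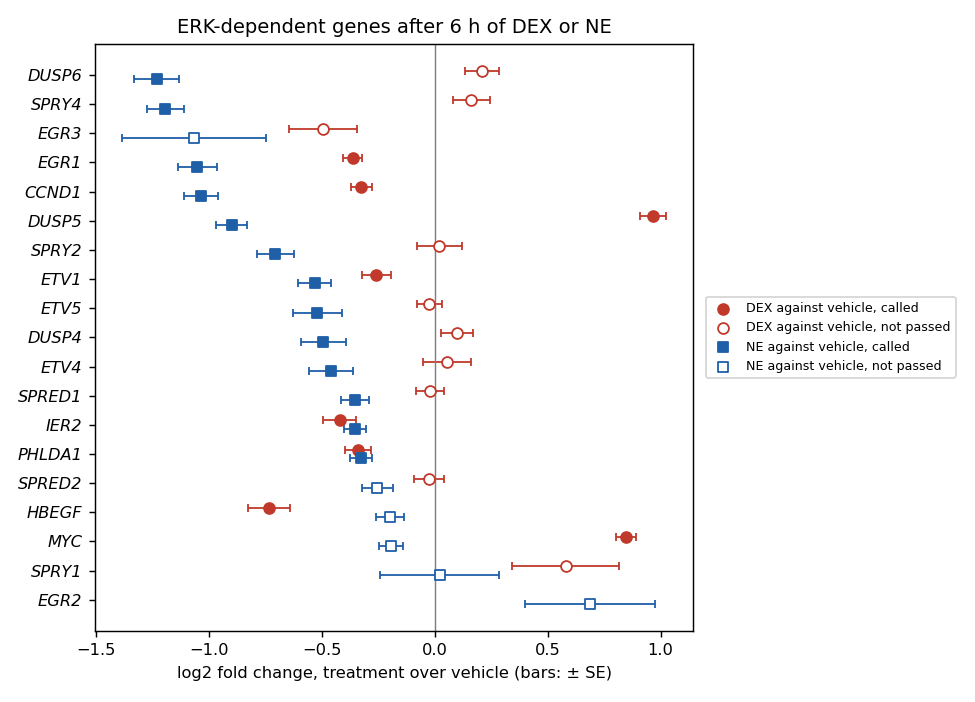
Log2 fold change of the ERK-dependent genes with DEX and with NE against their own vehicles, ordered by the NE value, with bars of 1 SE; filled points passed an adjusted p of 0.05. The NE points run down to DUSP6 at -1.23, and 13 are filled, all below 0.

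Of the genes known as AP-1 targets, 3 of 26 rose and 9 fell with DEX, beside 6.65% and 3.46% of all tested genes. The median of the targets was -0.19, against -0.01 over all genes. The number that rose was 1 without DEX library 2, and 5 without DEX library 3 or without a filter on low counts. The cytokine IL11 fell by 1.57 to 9.34 ± 0.76 CPM with DEX, against 27.9 ± 4.8 CPM in vehicle (adjusted p = 9.45e-05), and the chemokine CCL2 fell by 1.09 to 41.2 ± 4.0 CPM, against 87.7 ± 8.0 CPM (adjusted p = 2.47e-05). HBEGF, on both lists with CCND1, fell by 0.74, and PLAU, the urokinase gene, by 0.66 (adjusted p = 0.000816). With NE, 1 of 28 rose and 6 fell, with a median of -0.11, and 1.48% and 1.34% of all tested genes were called higher and lower. CCND1 fell by 1.04 (adjusted p = 0.000346). CCL2 and PLAU fell by 0.64 and 0.54 with NE (adjusted p = 0.0155 and 0.0274), calls lost in 3 and in 5 of the 6 fits without 1 library. The NE count of 6 was 2 without NE library 2, NE library 3 or vehicle library 3, 3 without vehicle library 2, and 10 in DESeq2, and the number that rose was 1 without vehicle library 1 and 0 in the other 5 fits that left out 1 library. The collagenase and stromelysin genes MMP1, MMP3 and MMP10, classical AP-1 targets, averaged at most 0.828 CPM in any group.

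Among the other bZIP genes counted, 6 of 27 rose and 5 fell with DEX, beside 6.65% and 3.46% of all tested genes. CEBPD, a C/EBP protein of stress responses, rose by 1.55 to 182 ± 1.9 CPM with DEX, against 62.3 ± 4.0 CPM in vehicle (adjusted p = 8.57e-11). BACH2 rose by 0.84 and CEBPB by 0.41 (adjusted p = 0.000103 and 2.69e-05), and BATF2, at 0.263 ± 0.011 CPM with DEX and 0.981 ± 0.35 CPM with vehicle, fell by 1.89 (adjusted p = 0.00295). The number that fell was 2 in DESeq2, 3 in the fit of all 12 libraries, 1 without DEX library 3 or vehicle library 2, and 3 without DEX library 1, DEX library 2 or vehicle library 1. With NE, 4 of 28 rose and 2 fell, beside 1.48% and 1.34% of all tested genes. CEBPA rose by 1.84, CEBPD by 1.10 and CREB5 by 0.95 (adjusted p = 0.00306, 0.000613 and 0.00149), and NFE2L3 fell by 0.48 (adjusted p = 0.00780). The number that rose was 7 without vehicle library 1, and the number that fell was 0 without NE library 3 and 1 in the fits without NE library 1 or 2 or vehicle library 2 or 3. Of the transcripts of kinases and factors upstream of AP-1, 7 of 30 rose and none fell with DEX, beside 6.65% and 3.46% of all tested genes. The 7 were led by the stress kinase MAP3K5 at 0.58, ETS2 at 0.49, MAP3K1 at 0.39 and ELK3 at 0.33 (adjusted p from 0.000148 to 0.00436). With NE, ETS2 rose by 0.43 (adjusted p = 0.00163), and ELK3 and ETS1 fell by 0.35 and 0.32 (adjusted p = 0.00306 and 0.0403). The ETS1 call was lost in the 5 fits without 1 library other than vehicle library 1. Transcript levels say nothing of the phosphorylation through which these kinases act.

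Likeness to the 4 members with the smallest adjusted p was measured over all 12 libraries as the root mean square difference of log2 levels, each set against its own vehicle, among 11976 genes. Nearest to FOSL1 were ENC1 (0.151), POU2F2 (0.157) and CCND1 (0.169), with log2 fold changes of -0.52, -0.88 and -0.33 with DEX and -0.85, -1.02 and -1.04 with NE. Nearest to FOSL2 were MAN1A1 (0.0237), ZHX3 (0.0293) and APBB2 (0.0437), nearest to JUN were SEMA7A (0.161), SPRY4 (0.169) and RGS4 (0.177), and nearest to ATF3 were CD55 (0.114), KCNG1 (0.133) and PDE7B (0.134). These are descriptions of a pattern over shared libraries and not tests.

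The vehicle cells of the 2 tables held different AP-1 mixtures. Between the vehicle of the NE table and that of the DEX table, 9 of 10 members were called, 8 lower and 1 higher, against 51.6% of all 15952 tested genes. The libraries of the 2 sets did not overlap in 9 of 10 members, beside 56.3% of all genes. FOS was at 3.96 ± 0.29 CPM in the vehicle of the NE table and 23.2 ± 2.1 CPM in that of the DEX table (log2 -2.58, SE 0.11, adjusted p = 2.93e-10). ATF3 was at 10.2 ± 0.27 and 45.5 ± 3.3 CPM (log2 -2.18, SE 0.10, adjusted p = 1.38e-09). FOSL1 was the member that was higher, at 121 ± 2.0 and 65.1 ± 3.0 CPM (log2 0.87, SE 0.06, adjusted p = 2.66e-08). JUN, at 135 ± 4.3 and 148 ± 11 CPM, did not pass (log2 -0.15, SE 0.10, adjusted p = 0.238). The table cannot be told apart from a difference between cultures, so levels in DEX and NE cells are not compared with each other here.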

How the data were processed

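RNA sequencing of 12 libraries was used. Each deposited table holds expected counts, a unit read from the files: per library, 49.3% to 55.6% of the nonzero entries were fractional. Not given in the sources used here are aligner, counter, build, strand and kit. Symbols matched 34436 of 37247 identifiers, and positions came from GENCODE 29 (GRCh38).

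Expected counts were rounded (totals changed by at most 0.000918%), filtered with filterByExpr and scaled by TMM. Each treatment was tested against the vehicle of its table with edgeR 4.0.16's robust quasi-likelihood test (R 4.3.3; limma 3.58.1), two-sided, Benjamini-Hochberg adjusted over all tested genes and called below 0.05. The difference of effects and the vehicle sets used all 12 libraries. Levels are CPM, and shares used CPM per kilobase. Alternatives were DESeq2 1.42.0, RLE size factors, no filter, at least 1 CPM in 3 libraries, a replicate block, all libraries in 1 fit, other lengths, and leaving out each library.

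The members and lists were chosen with earlier results of these data known. All members are given, those called by library, and per list and comparison up to 4 called genes with the largest absolute log2 fold change; 1 of these is not reported here. Likeness used a prior count of 2, genes averaging at least 1 on the log2 CPM scale, and the 3 nearest of them. List counts under the alternatives were added after seeing the data.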

Additional observations from a re-analysis of the deposited data

Results flagged for a closer look

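The effects of DEX and NE differed by the test of the difference itself (edgeR's quasi-likelihood test, 12 libraries) for 4 members. JUN differed by 0.99 on the log2 scale (adjusted p = 0.00153), with a fold change of -0.03 with DEX and -1.03 with NE. FOSL2 differed by 0.51 (adjusted p = 0.00130), at 0.47 with DEX and -0.04 with NE. FOSL1 differed by 0.41 (adjusted p = 0.00841), lower with both treatments. ATF3 differed by -0.56 (adjusted p = 0.0276), at 0.31 with DEX, which did not pass, and 0.87 with NE. Treatment goes with table and vehicle set, so these differences cannot be told apart from a difference in the cells' starting state.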

How the results depend on the processing

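FOSL1 with DEX and NE, FOSL2 and JUNB with DEX, and JUN and ATF3 with NE kept their direction and their call in every alternative run, and no called direction of a member reversed. Leaving out 1 library gave FOSL1 values from -0.69 to -0.60 with DEX and from -1.11 to -1.02 with NE. Of 10 members, the number higher with DEX was 1, and 3 in DESeq2, 4 without a filter, 3 with a replicate block, 3 with all 12 libraries in 1 fit and 1 to 4 without 1 library. The number higher with NE was 2, and 1 with all 12 libraries in 1 fit and 1 to 2 without 1 library. The ranges without 1 library were 2 to 3 lower with DEX, 2 to 3 lower with NE, 3 to 5 for the difference of effects and 9 to 10 between the vehicle sets. The cause of these changes was not tested.

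The Jun family share was 65.4%, 66.8%, 62.6% and 56.8% in DEX cells, their vehicle, NE cells and their vehicle with summed exon length, 49.5%, 54.2%, 49.9% and 51.1% with plain CPM, and 70.1%, 70.5%, 64.2% and 56.4% over Fos and Jun genes alone. These follow from the lengths and members that enter the sum.

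The labels do not say that a number marks a shared culture or day, so the numbers were not taken as pairs. The deviations of same-numbered libraries from their group means correlated above 0.1 in 1 of 6 pairs (-0.005, 0.02 and -0.06 in the DEX table, and 0.155, 0.051 and 0.092 in the NE table). With the replicate block, FOS and ATF3 passed with DEX (adjusted p = 0.00967 and 0.0139), JUNB passed with NE (0.00551), the difference of effects passed for 6 members, and the vehicle sets differed in 10. With the block, 11 AP-1 targets fell and 3 rose with NE, 9 other bZIP genes rose with NE and 3 fell with DEX, and 10 cAMP control genes rose with NE. Depth differs by gene, with 57 to 4851 counts per library.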
